A study of Mus musculus with 6 samples.

Results

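The transcripts Bcl2l15, Zfp949, Prkd1, Gm11290, Gm11728 and 1700064H15Rik were followed through epithelial cells of mouse ileal crypts with and without the formyl peptide receptor gene Fpr2. The 6 genes, of 32285 listed in the files, were selected by symbol, because their measured levels were lower in the knockout libraries of these same data. The difference between groups is therefore a description, with no test for these 6 genes. Their distribution over epithelial lineages and their relation to the depth of a barcode were not themselves used to choose them and were tested. Barcodes of the knockout libraries were deeper, as given below, so the relation to depth is not independent of the choice. The depth test was also chosen after seeing the data.

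Crypt epithelium of C57BL/6J mice of 8 to 12 weeks was sorted on the surface protein EpCAM, and single cells were sequenced on the MobiNova-100 droplet platform. The control group (3 libraries, labelled WT) carried loxP-flanked Fpr2 (Fpr2f/f). The knockout group (Fpr2VKO, 3 libraries) carried the same alleles and Cre under the Villin promoter, which acts in intestinal epithelium and leaves Fpr2 in other cells of the mouse. There were 3 mice per group, so a library was taken as 1 mouse, although the labels do not tie libraries to mice.

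Barcodes with at least 1000 UMIs (unique molecular identifiers, each marking 1 captured transcript), at least 500 genes and at most 20% mitochondrial UMIs were kept, which left 10201 barcodes in Fpr2f/f and 6903 in Fpr2VKO. A kept library held 26540424 to 52349750 UMIs. The median UMIs per kept barcode were 3033 to 4612 in Fpr2f/f and 6358 to 6728.5 in Fpr2VKO, so the knockout barcodes were deeper. Before the mitochondrial limit, the median mitochondrial share was 26.3% to 31.7% in Fpr2f/f and 32.4% to 39.3% in Fpr2VKO, with no overlap, and the limit removed 65.7% to 78.0% and 76.1% to 90.1% of barcodes. In kept barcodes the medians overlapped, at 12.999% to 13.7% and 12.9% to 14.9%. The part of this in the group differences was not tested beyond limits of 10% and 40%, given in the closing section. All 6 epithelial markers checked were detected in every library, at a summed level of 3832 to 4381 CPM (the UMIs of a gene, scaled to a common total of 1e6 per library). One of them, Vil1, was at 278, 324 and 343 CPM in Fpr2f/f and 420, 435 and 452 CPM in Fpr2VKO with TMM, with no overlap (log2 fold change 0.45 ± 0.12, SE), and its part in the results was not tested. The summed level of 12 immune markers was 388 to 523 CPM in Fpr2f/f and 219 to 1072 CPM in Fpr2VKO, highest in Fpr2VKO replicate 1. The 8 stromal and blood markers summed to 6.74 to 10.1 CPM. Pairs of libraries shared 0 to 23 kept barcode sequences, against 1.8 to 5.68 expected if libraries were independent. The highest counts were 23, 22 and 21, against 4.54, 5.54 and 5.29 expected. They were all among replicates 1 and 2 of both groups, while some other pairs lay below their expectation. The cause was not tested. Fpr2 had 0 UMIs over all barcodes of every library, so these files cannot check the deletion. A count of 0 allows up to 3 UMIs, or 0.0573 to 0.113 CPM of the kept UMIs of a library.

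Bcl2l15 encodes a member of the BCL2 family, whose proteins set the balance between survival and death of a cell at the mitochondrial membrane. Prkd1 encodes protein kinase D1, a serine/threonine kinase that responds to diacylglycerol and is switched on by protein kinase C downstream of phospholipase C and G protein-coupled receptors. The name of Zfp949 places it among the zinc finger protein genes. Gm11290 and Gm11728 are annotated as long intergenic noncoding RNAs. 1700064H15Rik is annotated as protein coding, and no role is given for it here. In the crypt, stem cells give rise to dividing transit-amplifying (TA) cells, and these to absorptive enterocytes and to secretory Paneth, goblet, enteroendocrine and tuft cells.

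The genes lie on 5 chromosomes (GRCm38, GENCODE annotation matched by gene ID). Bcl2l15 (ENSMUSG00000044165) spans positions 103832601 to 103854618 on the forward strand of chromosome 3, and 1700064H15Rik (ENSMUSG00000082766) positions 19610368 to 19628677 on the reverse strand of the same chromosome. Zfp949 (ENSMUSG00000032425) lies on chromosome 9 from 88548020 to 88571061, forward. Gm11728 (ENSMUSG00000086902) lies on chromosome 11 from 117035078 to 117040193, reverse. Prkd1 (ENSMUSG00000002688) is the longest of them, at 307868 bases on chromosome 12 from 50341231 to 50649098, reverse, of which 3653 bases are exonic. Gm11290 (ENSMUSG00000085827) lies on chromosome 13 from 22014468 to 22020738, forward. 2 of the genes share exon sequence with another annotated gene. Bcl2l15 shares 569 exon bases with Gm43064 on the same strand, a gene that is not listed among the counted features. 1700064H15Rik shares 27 exon bases with Dnajc5b on the opposite strand, which had 120 UMIs in all kept barcodes, and whether counting used strand is not given in the sources used here.

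The start regions of the 3 named protein-coding genes are shown because the genes were lower together and their start regions differ in base composition. They come from RefSeq (GRCm38.p6, 250 bases before to 50 bases after the annotated start, on the strand of the gene), which held 3 of the 6 genes. Bcl2l15 is chr3:103832446-103832745, Zfp949 is chr9:88547770-88548069 and Prkd1 is chr12:50649200-50649499. Capitals mark matches, on either strand, to 5 short motifs. These are the TATA box (TATAAA), the CCAAT box, the GC box (GGGCGG), the core of sites for CDX proteins (TTTAT) and a core common to sites of TCF and HNF4 proteins (CAAAG).
Bcl2l15: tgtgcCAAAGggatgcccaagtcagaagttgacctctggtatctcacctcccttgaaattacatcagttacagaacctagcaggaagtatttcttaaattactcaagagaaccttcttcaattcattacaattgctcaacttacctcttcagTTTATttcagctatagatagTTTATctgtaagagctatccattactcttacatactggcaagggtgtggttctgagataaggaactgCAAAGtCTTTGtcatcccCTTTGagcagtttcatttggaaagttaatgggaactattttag
Zfp949: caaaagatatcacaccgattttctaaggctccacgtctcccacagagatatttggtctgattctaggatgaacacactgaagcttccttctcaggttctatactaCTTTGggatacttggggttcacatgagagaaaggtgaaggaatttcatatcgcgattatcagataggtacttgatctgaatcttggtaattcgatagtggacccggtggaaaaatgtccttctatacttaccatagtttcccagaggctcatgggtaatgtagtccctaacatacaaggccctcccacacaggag
Prkd1: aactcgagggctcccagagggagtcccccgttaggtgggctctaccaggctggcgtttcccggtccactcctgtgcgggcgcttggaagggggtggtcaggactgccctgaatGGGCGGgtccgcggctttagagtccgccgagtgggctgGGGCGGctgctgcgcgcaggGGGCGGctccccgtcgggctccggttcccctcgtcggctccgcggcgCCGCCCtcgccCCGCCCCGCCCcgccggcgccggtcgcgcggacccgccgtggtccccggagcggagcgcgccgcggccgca
The Bcl2l15 region held 38.3% G and C and 0 CG dinucleotides, against a median of 52.7% and 7 over 32851 start regions. The Prkd1 region held 77.3% G and C and 43 CG dinucleotides, with less G and C in 97.8% of all start regions. The Zfp949 region lay below the median, at 43.3% G and C and 6 CG dinucleotides. GGGCGG had 6 matches in Prkd1 and 0 in the other two, and 35.7% of all start regions held it. TTTAT had 2 matches, in Bcl2l15 only of these regions, against 40.01% of all start regions. CAAAG had 4 matches in Bcl2l15 and 1 in Zfp949, against 53.9% of all start regions. TATAAA (13.6% of all) and CCAAT (37.4% of all) had 0 matches in these regions. Any match to TATAAA would hold one to TTTAT on the other strand, and a match in a window is only a match of letters.

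The level of each gene was compared between groups over all kept barcodes, as CPM after TMM scaling. Bcl2l15 was at 132, 109 and 137 CPM in the Fpr2f/f replicates 1 to 3, and at 93.3, 95.2 and 84.7 CPM in Fpr2VKO. All 3 control libraries were above all 3 knockout libraries, with means of 126 ± 15.0 and 91.1 ± 5.62 CPM (SD, n = 3 each) and a log2 fold change of -0.48 ± 0.12 (SE). Prkd1 was at 3.81, 4.55 and 3.95 CPM in Fpr2f/f and at 1.44, 2.07 and 1.40 CPM in Fpr2VKO. These levels came from 108, 230 and 137 UMIs against 58, 83 and 43 UMIs per library, and the log2 fold change was -1.34 ± 0.22 (SE). Zfp949 was at 53.6, 127 and 99.4 CPM in Fpr2f/f and at 39.7, 42.3 and 41.4 CPM in Fpr2VKO. The Fpr2f/f libraries spread widely, with replicate 1 nearest to the knockout libraries, whereas the 3 Fpr2VKO libraries lay close together at 41.1 ± 1.31 CPM (SD, n = 3).

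The noncoding RNAs differed in abundance. Gm11290 was at 27.2, 27.8 and 24.2 CPM in Fpr2f/f and at 13.2, 19.3 and 19.8 CPM in Fpr2VKO, a log2 fold change of -0.61 ± 0.15 (SE). Its knockout spread came from replicate 1, the lowest library. Gm11728 was at 2.36, 2.31 and 1.35 CPM in Fpr2f/f and at 0.545, 0.648 and 0.260 CPM in Fpr2VKO. It rested on 47 to 117 UMIs per Fpr2f/f library and 8 to 26 UMIs per Fpr2VKO library, and its log2 fold change of -2.03 ± 0.36 (SE) is the least precise of the 6. 1700064H15Rik was at 5.89, 6.15 and 7.29 CPM in Fpr2f/f and at 2.33, 2.87 and 3.45 CPM in Fpr2VKO, a log2 fold change of -1.18 ± 0.19 (SE).

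**Figure D1:**
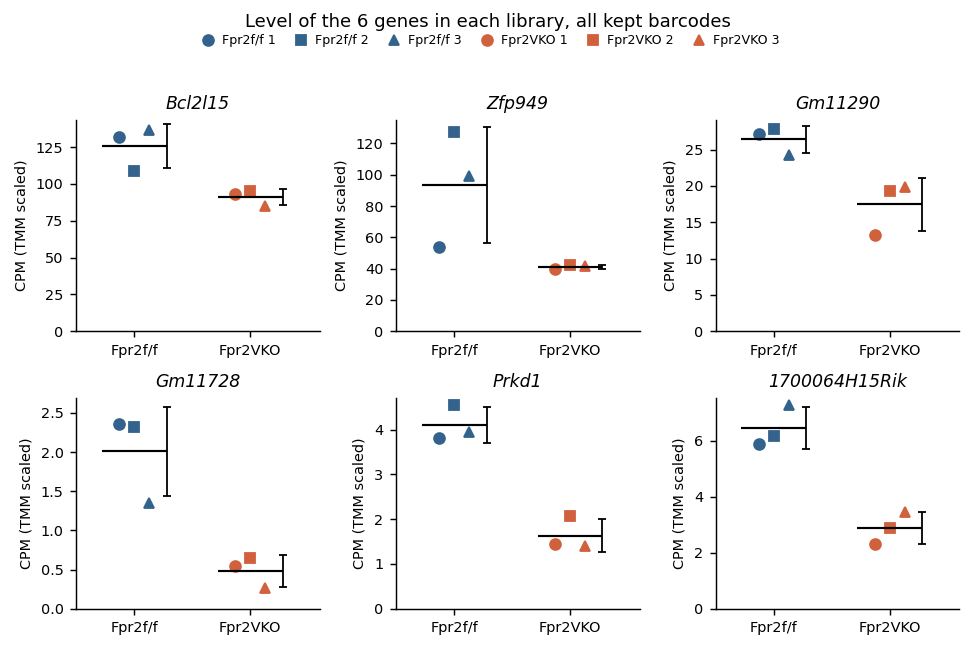
Level of each gene (CPM after TMM scaling, from 0) in the 3 Fpr2f/f and 3 Fpr2VKO libraries, 1 point a library, with the group mean (line) and SD (bar). In every panel the 3 knockout points lie below the 3 control points, from 27.5% (Bcl2l15) to 75.9% (Gm11728) below in the mean.

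All 6 genes had every Fpr2VKO library below every Fpr2f/f library, as did 6.30% of the 16917 genes tested. The genes were chosen for this, so the count supports nothing. In the edgeR quasi-likelihood test over these 16917 genes, 0% were called lower and 0.0177% were called higher in Fpr2VKO (adjusted p under 0.05, Benjamini-Hochberg), with 1430 genes at an unadjusted p under 0.05. These sums pool all cell types of a library. With equal weights of the 7 marker classes described below, the log2 fold change was -0.51 for Bcl2l15 and -1.07 for Zfp949, against -0.48 and -1.20 over all barcodes, which leaves out the 6771 barcodes in no class. The class values were uneven. They ran from -1.68 in stem to -0.06 in goblet for Bcl2l15, and from -1.87 to -0.34 in the same classes for Zfp949. The other 4 genes did not pass the filter in every class.

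Since the knockout barcodes were deeper, the levels were next set out by depth. In barcodes of at least 10000 UMIs all 6 genes again had no overlap between the groups (5.07% of all genes), for example Zfp949 at 37.7 to 58.9 against 24.2 to 30.1 CPM. In barcodes of 5000 to under 10000 UMIs this held for Prkd1, Gm11728 and 1700064H15Rik (3 of 6, with 4.29% of all genes). Gm11728 rested on 5, 9 and 2 UMIs in Fpr2f/f and 2, 0 and 1 UMIs in Fpr2VKO in that range. Its nearest values were 0.542 CPM in Fpr2f/f and 0.517 CPM in Fpr2VKO. Prkd1 had 7, 8 and 6 UMIs in Fpr2VKO in the same range. In barcodes of 1000 to under 5000 UMIs the lack of overlap held for Prkd1 only (1 of 6, with 5.47% of all genes). Prkd1 was at 12.4 to 15.7 CPM in Fpr2f/f and 2.93 to 9.16 CPM in Fpr2VKO in these barcodes. There Gm11290 was at 35.1 to 36.8 CPM in Fpr2f/f and 19.7 to 42.1 CPM in Fpr2VKO, with the highest value in a knockout library. Gm11728 was at 1.09 to 2.59 CPM against 0.837 to 2.44 CPM there, and 1700064H15Rik at 12.2 to 17.0 CPM against 5.86 to 14.2 CPM. The part of depth in the group differences was not tested beyond these values.

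For 5 genes the level in shallower and deeper barcodes differed in 1 direction in every library. Each library's level in barcodes of 1000 to under 5000 UMIs was compared with that in barcodes of at least 10000 UMIs, in CPM without TMM scaling. Prkd1 was at 10.2 ± 4.92 CPM in the shallower and 1.58 ± 0.548 CPM in the deeper barcodes (SD, n = 6 libraries), higher in 6 of 6 libraries and 6.48 times higher in the mean. Zfp949 was 4.42 times and 1700064H15Rik 4.05 times higher in the shallower barcodes, and Gm11290 1.63 times, each in 6 of 6 libraries. Bcl2l15 went the other way. It was 1.58 times higher in the deeper barcodes in 6 of 6 libraries, at 119 ± 30.6 against 75.0 ± 15.1 CPM (SD, n = 6). For these 5 genes the exact two-sided permutation of signs gave p = 0.0312, the smallest that 6 libraries allow, and 0.0577 after adjustment over all 16917 genes, which misses the threshold. Of all genes, 35.6% were higher and 18.6% lower in the shallower barcodes in 6 of 6 libraries, and 0 passed the adjusted test. The genes were chosen as lower in the knockout, whose barcodes were deeper, so these directions are not independent of the choice. Gm11728 was higher in the shallower barcodes in 4 of 6 libraries (exact permutation adjusted p = 0.308). The median mitochondrial share per library was 14.0% to 16.2% in the shallower and 10.03% to 12.7% in the deeper barcodes, and its part was not tested.

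Barcodes below the limits also carried the genes. In barcodes under 100 UMIs, taken here as RNA free in the suspension, Prkd1 was at 15.8 to 44.9 CPM in Fpr2f/f and 3.63 to 9.59 CPM in Fpr2VKO, with no overlap. The mean was 5.55 times that of kept barcodes, and higher in 6 of 6 libraries (exact permutation p = 0.0312, adjusted 0.0467 over all genes). Barcodes from 100 UMIs up to the limits held Prkd1 at 55.3 to 71.1 CPM in Fpr2f/f and 10.3 to 36.0 CPM in Fpr2VKO, above every other depth range. Bcl2l15 was lower in free RNA than in kept barcodes in 6 of 6 libraries (same p), and was at 67.7 to 86.6 CPM in Fpr2f/f and 46.1 to 49.9 CPM in Fpr2VKO there. Gm11290 and 1700064H15Rik were 1.48 and 1.67 times higher in free RNA than in kept barcodes, each in 6 of 6 libraries (same p). The mean of 1700064H15Rik in Fpr2f/f was 8.79 CPM in free RNA and 6.58 CPM in kept barcodes. In Fpr2VKO these means were 6.88 and 2.82 CPM. Zfp949 and Gm11728 showed no difference past the threshold (exact permutation adjusted p = 0.837 and 0.78). Of all genes, 14.6% passed as higher and 52.4% as lower in free RNA by this test. The 6 genes were chosen on their levels in kept barcodes, so their tests against kept barcodes are not independent of the choice. No correction for free RNA was made, and a low level in kept barcodes can come from it.

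**Figure D2:**
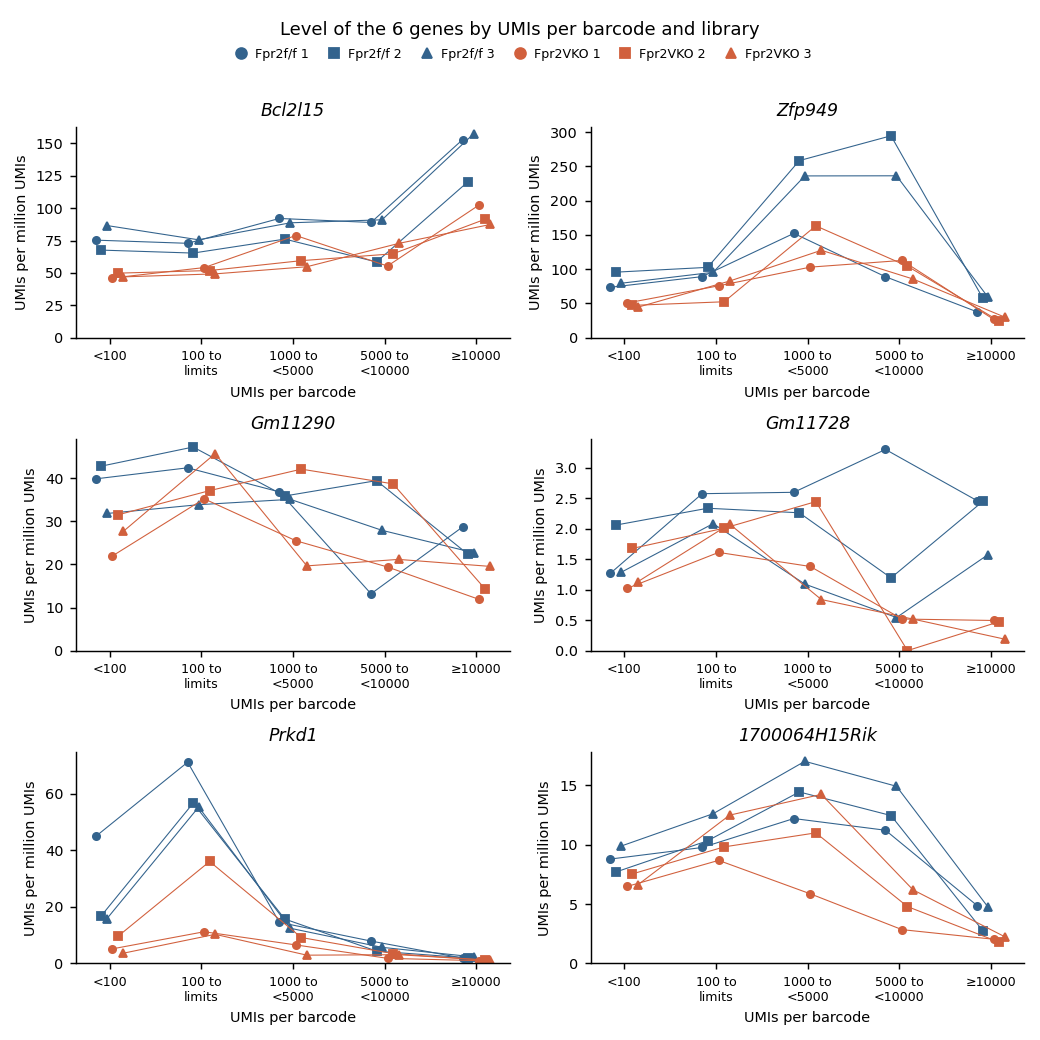
Level of each gene (CPM without TMM scaling, from 0) against UMIs per barcode, with 1 line a library; "limits" are 1000 UMIs and 500 genes. Prkd1 peaks in barcodes from 100 UMIs up to the limits, Bcl2l15 is highest in barcodes of at least 10000 UMIs, and the groups do not overlap for 5, 4, 1, 3 and 6 of the 6 genes in the 5 ranges from shallowest to deepest, with 15.8%, 21.5%, 5.47%, 4.29% and 5.07% of all genes.

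Kept barcodes were then put into 7 epithelial classes by their marker transcripts, and the classes rest on those alone. Joining a class took at least 2 of its markers, 3 marker UMIs and a 2-fold excess over their library share. Among the classes a barcode met, it joined the one with the highest Poisson log-likelihood score of observed over expected marker UMIs. This score rises with both fold excess and marker UMIs, so the chosen class need not have the largest fold excess. Of 17104 kept barcodes, 10017 joined an epithelial class, 316 the immune class and 6771 none. Of those assigned, 1551 lay near the 2-fold limit, and 941 met the limits of more than 1 class. Median UMIs per barcode in the stem class were 5839 to 20400.5 in Fpr2f/f and 21146 to 33845 in Fpr2VKO libraries, so depth differed between the groups within a class as well. The median stem marker level per barcode in that class was 3137 to 4621 CPM in Fpr2f/f and 8999 to 13735 CPM in Fpr2VKO, with no overlap. Depth also differed between classes. The median UMIs per library were 5839 to 33845 in stem, 8253 to 47107.5 in Paneth and 9709 to 16939 in enteroendocrine, against 3104 to 5634 in TA and 1899.5 to 4356.5 in tuft. The part of depth in the class differences was not tested. Each class was tested against the equal-weight mean of the other 6, with the library as a block, over 42 sums per library and class.

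Over the 7 classes, 35 pairs of gene and class were tested (5 genes, since Gm11728 did not pass the filter on low counts). Of these, 10 were called higher and 12 lower (edgeR quasi-likelihood test, adjusted p under 0.05). The higher calls are 28.6% of the pairs, near the background in most classes. Of all 13191 genes, 32.5% were called higher in the stem class, 29.3% in TA, 31.8% in enterocyte, 30.1% in Paneth, 28.5% in goblet, 33.8% in enteroendocrine and 12.3% in tuft. The lower calls are 34.3% of the pairs. Of all genes, 34.5% were called lower in stem, 31.8% in TA, 39.1% in enterocyte, 26.0% in Paneth, 28.5% in goblet, 30.9% in enteroendocrine and 15.2% in tuft, so the share of lower calls is also near the background in most classes. All 5 genes differed over the classes, as did 96.3% of all genes.

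Bcl2l15 was highest in the enterocyte class. It was at 342, 304 and 275 CPM in the Fpr2f/f and 290, 275 and 244 CPM in the Fpr2VKO replicates there (TMM scaling over the class sums). The mean of 288 ± 33.0 CPM (SD, n = 6) was 25.9 times that of the enteroendocrine class, its lowest with TMM, at 11.1 ± 3.94 CPM. With library totals the lowest class was Paneth, at 5.65 CPM, and the enterocyte level was 53.7 times that. The difference from the other classes was 3.20 ± 0.11 (log2, SE; edgeR adjusted p = 1.65e-22). It was also higher in the TA class (79.0 ± 19.9 CPM; log2 0.87 ± 0.13, edgeR adjusted p = 7.98e-07) and the tuft class (67.3 ± 13.3 CPM; log2 0.89 ± 0.24, edgeR adjusted p = 0.0045). The TA and tuft levels lay within the spread of each other. The stem (22.6 CPM), Paneth (17.3 CPM), goblet (31.0 CPM) and enteroendocrine classes were lower by the same test. Their means were below the 46.1 to 86.6 CPM of free RNA, which is without TMM scaling. With library totals these class means were 5.65 to 33.2 CPM. The goblet call was lost without Fpr2f/f replicate 1 or 2 (edgeR adjusted p = 0.108 and 0.107). The tuft call was lost without Fpr2f/f replicate 2 (edgeR adjusted p = 0.0808). The groups overlapped in the enterocyte class, where the gene was most abundant. They did not in the stem class, at 23.5 to 42.4 CPM in Fpr2f/f and 8.08 to 13.6 CPM in Fpr2VKO. The groups also differed there in depth and stem marker level, as given above, and the part of these was not tested.

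Zfp949 was spread more evenly than Bcl2l15. Its highest class, tuft, stood 3.10 times above goblet, the lowest with TMM, and with library totals 5.38 times above Paneth, then the lowest at 22.5 CPM. It was higher in the TA class (79.1 ± 42.6 CPM, SD, n = 6; log2 0.44 ± 0.13, edgeR adjusted p = 0.00324) and the tuft class (95.6 ± 56.3 CPM; log2 0.95 ± 0.21, edgeR adjusted p = 0.00083), and lower in stem, goblet and enteroendocrine. In the TA class it was at 61.6, 146 and 118 CPM in Fpr2f/f and 44.0, 59.8 and 45.2 CPM in Fpr2VKO. Replicate 1 of Fpr2f/f was the lowest control there and again close to the knockout libraries. In the Paneth class, by contrast, the Fpr2f/f libraries lay close together with TMM, at 85.8, 88.6 and 85.5 CPM, against 39.4, 50.5 and 64.2 CPM in Fpr2VKO. The TMM factors of these Fpr2f/f sums were 0.392, 0.2725 and 0.345, so this closeness depends on the scaling.

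Prkd1 was a low transcript in every class. It had 46 UMIs in the stem, 123 in the TA, 88 in the enterocyte, 57 in the Paneth, 60 in the goblet, 12 in the enteroendocrine and 14 in the tuft class, over all 6 libraries. It was lower in the stem class (1.66 ± 0.757 CPM, SD, n = 6; log2 -0.94 ± 0.29, edgeR adjusted p = 0.0039) and the enteroendocrine class (1.17 ± 0.585 CPM; log2 -1.31 ± 0.43, edgeR adjusted p = 0.00668). The enteroendocrine call was lost without Fpr2f/f replicate 2 (edgeR adjusted p = 0.11). The TA, enterocyte, goblet and tuft classes were not called with TMM. With library totals the tuft class was called higher (log2 1.36 ± 0.50, edgeR adjusted p = 0.0269) on its 14 UMIs, and the class with the highest level changed from Paneth to tuft. Every class mean lay below the 16.0 CPM mean of free RNA, which is without TMM scaling. With library totals the highest class mean was 6.43 CPM. The free RNA mean includes Fpr2f/f replicate 1 at 44.9 CPM, while free RNA of the Fpr2VKO libraries held 3.63 to 9.59 CPM.

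Gm11290 was higher in the TA class, at 45.0, 53.2 and 39.6 CPM in Fpr2f/f and 33.3, 29.8 and 24.4 CPM in Fpr2VKO (log2 0.98 ± 0.21, edgeR adjusted p = 0.000146). It was called lower in the stem and enteroendocrine classes. The stem call was lost on leaving out any 1 of Fpr2f/f replicates 2 and 3 and Fpr2VKO replicates 1 and 3 (edgeR adjusted p = 0.0599 to 0.223), and the enteroendocrine call on leaving out Fpr2f/f replicate 1 (edgeR adjusted p = 0.106). 1700064H15Rik was higher in the TA class as well, at 6.70, 7.97 and 10.6 CPM in Fpr2f/f and 2.87, 4.64 and 5.10 CPM in Fpr2VKO (log2 1.23 ± 0.21, edgeR adjusted p = 6.69e-07). It was called lower in the enteroendocrine class, with 14 UMIs in all, a call lost on leaving out any 1 of the Fpr2f/f libraries or Fpr2VKO replicate 1 (edgeR adjusted p = 0.0514 to 0.108). Of the 5 genes tested, 4 were thus higher in the dividing TA class, with 29.3% of all genes. Gm11728 had 47 UMIs in the TA, 35 in the stem and 28 in the goblet class, and 1 to 7 UMIs in each of the others.

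The Paneth class turned on the scaling. The summed level of Paneth markers had a median of 400793 CPM per barcode there, and the TMM factors were 0.271 to 0.392, against 0.977 to 1.64 in the other classes. With TMM, Zfp949 (log2 0.74 ± 0.16), Gm11290 (log2 1.55 ± 0.26) and Prkd1 (log2 1.45 ± 0.30) were called higher in the Paneth class (edgeR adjusted p = 0.000187, 6.31e-06 and 2.81e-05). With totals only, all 3 were called lower there, at log2 -1.47, -0.70 and -0.75 (edgeR adjusted p = 3.14e-09, 0.0122 and 0.012). No direction is therefore given for these genes in the Paneth class. Bcl2l15 was lower there under both scalings, and the TA calls held under both. Of the lower calls in other classes, those of Bcl2l15 in the stem and enteroendocrine classes and of Zfp949 in the goblet class held with totals, and the other 8 fell short of the threshold. At a mitochondrial limit of 10%, the TA calls of Zfp949 (log2 0.22, edgeR adjusted p = 0.194) and Gm11290 (log2 0.21, edgeR adjusted p = 0.734) were lost, Bcl2l15 was not called in the tuft class (log2 -0.32), and Prkd1 and 1700064H15Rik did not pass the filter.

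**Figure D3:**
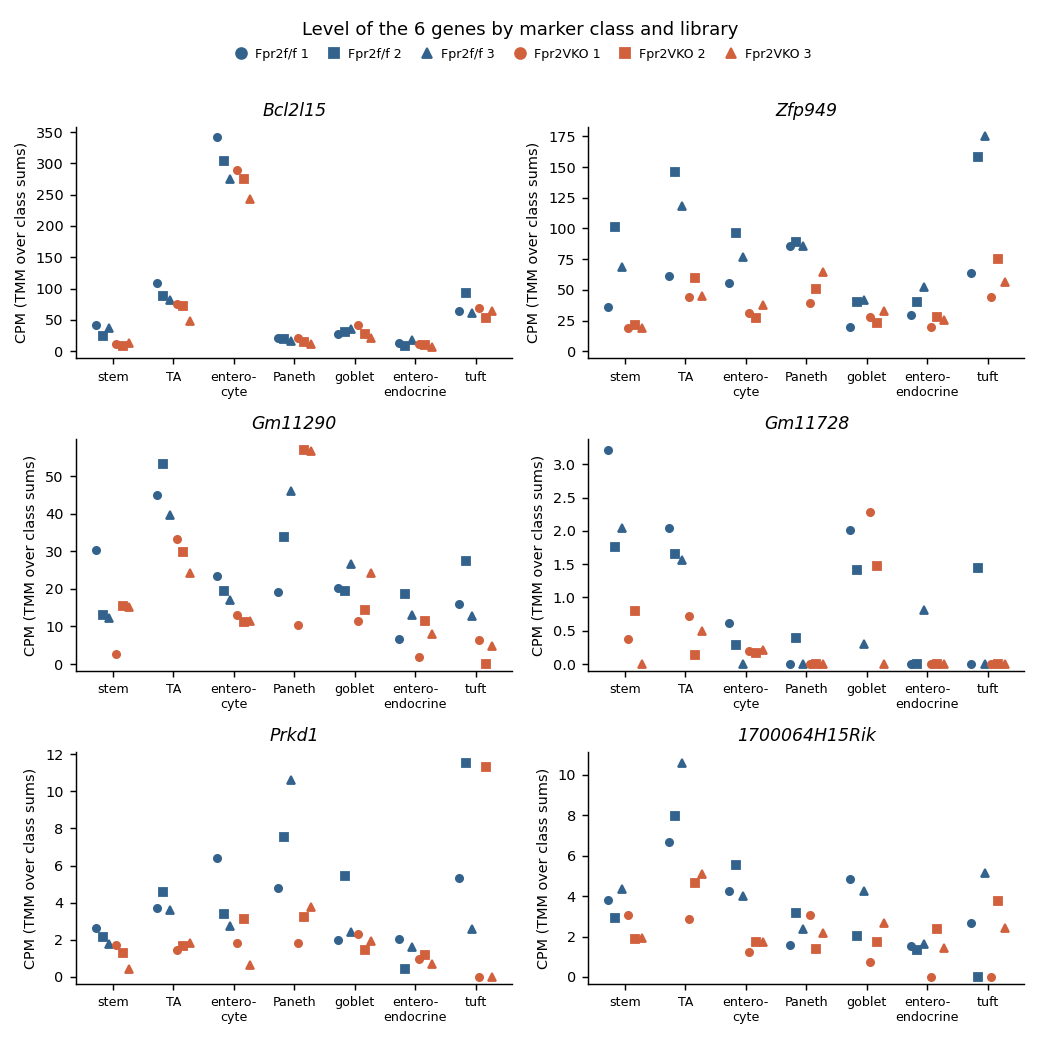
Level of each gene (CPM after TMM scaling over the 42 class sums) in 7 marker classes, 1 point a library. Bcl2l15 stands highest in the enterocyte class (244 to 342 CPM); in the TA class the knockout points lie below the control points for all 6 genes, and the Paneth levels depend on the scaling.

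Within the classes, the group difference was most regular in the TA class, where all 6 genes had no overlap between the groups, with 2.71% of all genes tested there. This count was 4 of 6 in the stem (4.99% of all genes), 3 in the enterocyte (6.45%), 2 in the Paneth (5.02%), 0 in the goblet (4.73%), 1 in the enteroendocrine (4.27%) and 1 in the tuft class (4.22%). The shares cover only genes that passed the filter on low counts in the class. The counts also hold Gm11728 and Prkd1 in stem, Prkd1 in Paneth and Gm11290 in tuft, which did not pass it. The knockout mean was the lower one in 40 of the 42 pairs of gene and class, a direction for which the genes were chosen, and in 43.1% of the 67791 pairs over all genes that passed the filter in a class. Some of the 42 pairs did not pass that filter, so the share is of an unlike set. The count is a description and supports nothing. The exceptions were Gm11290 in the Paneth class, at 32.9 in Fpr2f/f against 41.3 CPM in Fpr2VKO, and Gm11728 in the goblet class, at 1.24 against 1.25 CPM. The classes differ in their number of barcodes (363 in tuft, 3027 in TA), and differences between classes in the group effect were not tested.

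Genes with the most similar pattern over the 42 class sums were found by Pearson's r of log2 CPM, as a description of sums that share libraries and markers. The levels were TMM scaled and include the Paneth sums, which turned on the scaling. Prkd1 had only 12 to 123 UMIs per class over all libraries. Bcl2l15 ran closest to Coro2a (r = 0.946), Cyp4f40 (r = 0.945) and Lgals3 (r = 0.939). Zfp949 ran closest to Cmss1 (r = 0.91), Cdk8 (r = 0.89) and Gm48099 (r = 0.876). Prkd1 ran closest to Afm (r = 0.755), Col6a6 (r = 0.68) and Gm48099 (r = 0.661). Gm11290 ran closest to Hax1 (r = 0.705), Gcn1 (r = 0.705) and Rrn3 (r = 0.702), and 1700064H15Rik to Mus81 (r = 0.677), Zfp595 (r = 0.648) and Tmem254a (r = 0.644).

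Relatives of Bcl2l15 and partners of Prkd1 were tested between the groups, since the choice of the 6 genes did not use them. The lists were made with earlier results of these data known. Of 22 other BCL2 family genes, 19 passed the filter and 0 were called in either direction, with 1 at an unadjusted p under 0.05 (edgeR quasi-likelihood test). Of all genes, 0% were called lower and 0.0177% higher, and 8.45% had such a p. The median log2 fold change of the 19 was 0.09, against 0.00 over all genes. Bax, a pore-forming effector of cell death, was at 36.1 ± 6.21 and 41.0 ± 4.39 CPM in Fpr2f/f and Fpr2VKO (SD, n = 3 each). Pmaip1, which encodes the BH3-only protein NOXA, was at 52.7 ± 22.6 and 40.7 ± 5.31 CPM. Neither differed beyond the spread between libraries (edgeR adjusted p = 0.757 and 0.764).

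Of 28 genes of the protein kinase C and D pathway, all passed the filter and 0 were called, with 2 at an unadjusted p under 0.05 and a median log2 fold change of -0.04. The shares over all genes were again 0% called lower, 0.0177% called higher and 8.45% at an unadjusted p under 0.05 (edgeR). The other two kinases of the family lay on either side of 0. Prkd2 had a log2 fold change of -0.19 ± 0.14 (SE) and Prkd3 of 0.43 ± 0.17 (edgeR adjusted p = 0.752 and 0.569). Both were named after their values were seen. Ctnnb1, which encodes beta-catenin, had 0.22 ± 0.13 and Kidins220, a scaffold and substrate of protein kinase D, had 0.17 ± 0.11 (edgeR adjusted p = 0.689 and 0.709). DESeq2 also called 0 of these genes.

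The same test was applied to the 5 nearest tested genes on either side of each of the 6 genes. None of these 60 neighbours was called, where 0% of all genes were called lower and 0.0177% higher. An unadjusted p under 0.05 (edgeR) was held by 9 of them, and by 8.45% of all genes. DESeq2 called 0 of all 106 tested neighbours and relatives, with 9 at an unadjusted p under 0.05. Beside Bcl2l15, Magi3 had a log2 fold change of -0.14 ± 0.14 (SE) and Hipk1 of 0.12 ± 0.13. Beside Prkd1, Stxbp6 had 0.25 ± 0.14 and Pnpla8 0.21 ± 0.10, at 5266522 and 6018699 bases from it. Beside Zfp949, Snhg5 had -0.11 ± 0.12 and Snx14 0.09 ± 0.13. The tested gene that follows Zfp949, 9430037G07Rik, had -0.89 ± 0.27 (edgeR adjusted p = 0.458), with every Fpr2VKO library below every Fpr2f/f library at 1.04 against 1.90 CPM in the mean. Gm10634, also on that side, had -0.89 ± 0.38, and Gm33680 near Prkd1 had -0.999 ± 0.474 (edgeR adjusted p = 0.569 and 0.616). These 3 lie below the 20 CPM set for naming and were named after their values were seen. Beside Gm11728, Jmjd6 had -0.27 ± 0.12 and Sept9 -0.15 ± 0.13, and beside 1700064H15Rik, Armc1 had 0.20 ± 0.16 and Hltf 0.10 ± 0.11.

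Gm11290 lay among histone genes. Of its 10 neighbours, 9 had a lower estimate in Fpr2VKO, as had 49.7% of all genes, with a median log2 fold change of -0.61, equal to that of Gm11290 itself. The values ran from -1.60 ± 0.61 (SE) for the histone gene Hist1h4n to 1.15 ± 0.34 for Zfp184. None was called, and the smallest adjusted p (edgeR, 0.452) was that of Zfp184, which was higher in Fpr2VKO. An unadjusted p under 0.05 (edgeR) was held by 5, Zfp184 among them, and by 8.45% of all genes. The most abundant neighbour, Hist1h4i at a mean of 12.6 CPM, had -0.06 ± 0.15 (SE). The other neighbours lay at 0.762 to 3.56 CPM. All 10 were below 20 CPM, so these were named after their values were seen. For the other 5 genes the median of the neighbours lay between -0.03 and 0.10. The difference between these sets of neighbours was not tested.

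**Figure D4:**
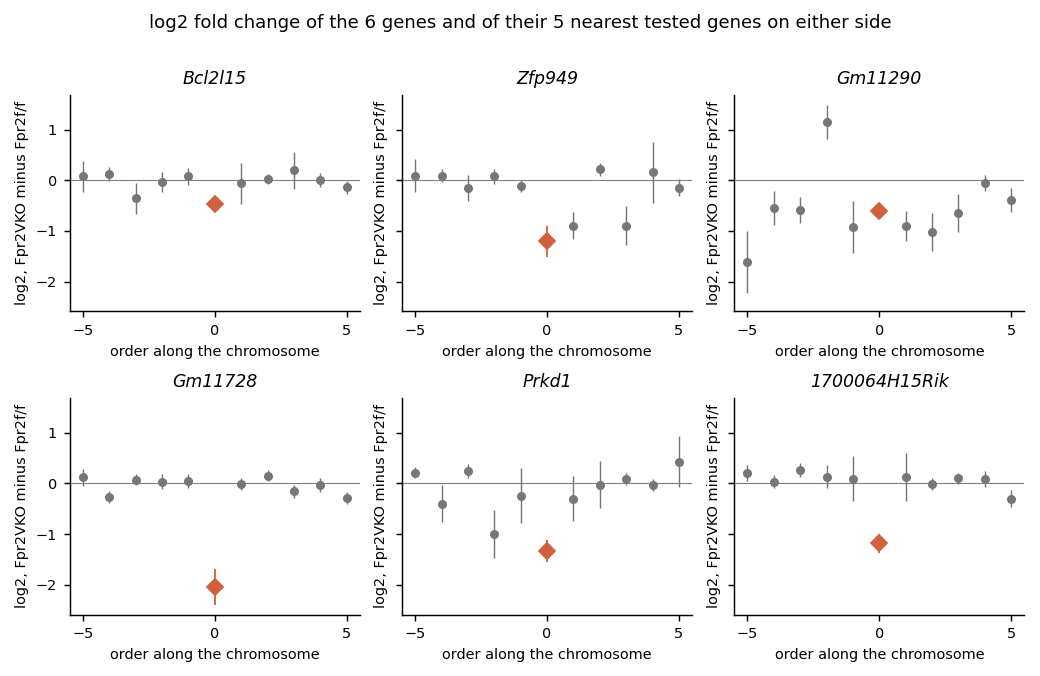
log2 fold change (Fpr2VKO minus Fpr2f/f) of each gene (diamond at 0) and of its 5 nearest tested genes on either side, in chromosomal order, with SE bars. The neighbours of 5 genes scatter around 0, while 9 of the 10 neighbours of Gm11290 lie below 0 with no call.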

How the data were processed

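Single-cell RNA of 3 Fpr2f/f and 3 Fpr2VKO libraries was measured. The deposited matrices hold raw UMI counts per gene and barcode, with no cell calling, and per the labels the authors made them with MobiVision 2.1 on mm10. The doublet removal and clustering of the authors came later and were not used here. The 6 genes and all lists were chosen with earlier results of these data known.

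Barcodes were filtered as stated (at least 1000 UMIs, 500 genes, at most 20% mitochondrial), and counts were summed per library, or per library and marker class of at least 20 barcodes. No doublet caller was run, and barcodes meeting 2 classes were left out as an alternative. Sums were fitted with edgeR 4.0.16 (R 4.3.3; TMM, filterByExpr, robust quasi-likelihood), with Benjamini-Hochberg adjustment over all genes tested and a threshold of 0.05. DESeq2 1.42.0 was an alternative. Group and class fits were tested on simulated data. Depth was compared by exact permutation of signs over 6 libraries, adjusted over all genes, a test chosen after seeing the data, as were the alternatives with library totals, depth ranges and shared barcodes.

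Named neighbours and list genes were those called, or else the 2 with the largest fold change of at least 20 CPM. For each gene with a class fit, 3 similar genes were named.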

Additional observations from a re-analysis of the deposited data

How the results depend on the processing

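Over 103 alternative values of the group fold change, all were negative, and 92 moved by less than 1 SD between libraries. That SD ran from 0.14 (Bcl2l15) to 0.54 (Gm11728) in log2. The genes were chosen as lower in these same libraries, so the signs support nothing. Leaving out 1 library gave log2 -0.58 to -0.40 for Bcl2l15, -1.48 to -0.91 for Zfp949, -1.55 to -1.25 for Prkd1, -0.72 to -0.45 for Gm11290, -2.29 to -1.77 for Gm11728 and -1.33 to -1.05 for 1700064H15Rik. Values for depth ranges are log2 ratios of mean CPM without TMM scaling, while the others come from fits. In barcodes of 1000 to under 5000 UMIs they were -0.35 (Gm11728), -0.30 (Gm11290), -0.49 (1700064H15Rik) and -0.72 (Zfp949). Over all kept barcodes, edgeR with library totals gave -2.08, -0.66, -1.23 and -1.23 for these genes. The cause was not tested. A mitochondrial limit of 10% gave -0.92 (Bcl2l15), -0.97 (Prkd1) and -1.53 (1700064H15Rik), and a limit of 40% gave -1.37 (Gm11728), -1.01 (Prkd1) and -0.81 (1700064H15Rik). In barcodes of at least 10000 UMIs Prkd1 was at -0.90. Equal weights of the 7 classes gave -0.51 (Bcl2l15) and -1.07 (Zfp949), while the other 4 genes did not pass the filter in every class.

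The count of 10 pairs of gene and class called higher ran from 9 to 10 on leaving out 1 library, 9 being without Fpr2f/f replicate 2, where Bcl2l15 in tuft was not called (log2 0.75, adjusted p = 0.0808). A mitochondrial limit of 10% gave 4 pairs, all 4 among the 10, with 3 genes tested in place of 5. There Bcl2l15 in the tuft class reversed, to log2 -0.32 (adjusted p = 0.693). Limits of 40% and no filter on low counts gave 13 pairs each, the 10 included. Library totals gave 8 pairs, 7 of them among the 10, and reversed the Paneth class differences of Zfp949 (-1.47), Gm11290 (-0.70) and Prkd1 (-0.75). Of the 12 lower calls, 5 were lost on leaving out 1 library. These were 1700064H15Rik in enteroendocrine and Gm11290 in stem (4 libraries each), Bcl2l15 in goblet (2), and Gm11290 and Prkd1 in enteroendocrine (1 each). A marker excess of 3-fold also lost Bcl2l15 in goblet (adjusted p = 0.0624) and 1700064H15Rik in enteroendocrine (adjusted p = 0.119). The latter was also lost with DESeq2 (0.0528) and at 2000 UMIs (0.0785), Gm11290 in stem at 2000 UMIs (0.0558) and a 10% limit (0.4), Gm11290 in enteroendocrine at a 10% limit (0.181), and Prkd1 there at a 40% limit (0.29; all adjusted p).

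The count of 0 called neighbours and relatives held under every alternative run, which included a fit with the replicate block (0 called). Since 0% of all genes were called lower and 0.0177% higher in the main fit, this count supports nothing. For each tested gene, the group mean was subtracted from the log2 CPM of each library. These deviations correlated at -0.0976, -0.0501 and 0.201 between same-numbered control and knockout libraries. Between unlike-numbered ones they correlated at -0.159 to 0.178. So few values cannot settle whether the replicate numbers pair the libraries. Gm11728, with 8 to 117 UMIs per library, is limited by depth.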
